A study of Homo sapiens with 16 samples.

Results

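The sites described here are stretches of the human genome that both HIF-1α and HIF-2α occupied in several cancer cell lines kept in low oxygen. The 23398 peaks of 16 chromatin immunoprecipitation sequencing (ChIP-seq) libraries were merged into 11685 sites wherever peaks overlapped by at least 1 bp. A site was selected on the presence of peaks alone: HIF-1α in at least 3 of the 4 cell lines and HIF-2α in at least 2, with a peak in either replicate. This left 219 shared sites, 1.87% of all merged sites. The libraries came from A549 (lung), HCT116 (colorectal), PC3 (prostate) and T47D (breast) cells, established carcinoma lines exposed to 0.5% oxygen over 16 hours. Chromatin was precipitated with antibody PM14 against HIF-1α or PM9 against HIF-2α, with 2 replicate libraries for each of the 8 combinations. Neither a genotype nor a drug treatment was varied, and peaks of cells in normal oxygen were not used here.

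HIF-1 and HIF-2 are transcription factors made of an oxygen-regulated α subunit and a shared β subunit. In oxygenated cells, prolyl hydroxylases mark the α subunits for destruction, and in hypoxia the α subunits accumulate, pair with HIF-1β and bind the core motif RCGTG, where R stands for A or G. HIF-1 is best known for the glycolytic genes, whereas HIF-2 is known for sites far from promoters and for cell-type specific genes. Both isoforms recognise the same core motif.

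The label of sites common to both isoforms held only in part. Of the 219 sites, 138 had HIF-1α in all 4 cell lines and 81 in 3. HIF-2α was present in 4 lines at 71 sites, in 3 at 68 and in 2 at 80. Both isoforms were listed in all 4 lines at 66 sites, and 24 sites had a peak in each of the 16 libraries. Any such site meets the rule, so these 24 are also all of their kind among the merged sites, or 0.205%. The number of libraries with a peak ran from 6 to 16, with a median of 11. The merged sites were 1245 to 7545 bp wide, with a median of 1981 bp.

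Libraries held from 275 to 4505 peaks, and the number of reads behind them is unknown, so a missing peak is not evidence of absent binding. The shortest list was 1 of the HIF-2α replicates of PC3, which had a peak at 56 of the shared sites, or 25.6%. Without it, 217 sites met the rule. HCT116 HIF-1α replicate 2, with the longest list, had a peak at 215 of the shared sites, or 98.2%. Each peak was given its score percentile, which is its rank by the deposited score within its own library, where 100 is the best peak and a site with no peak counts as 0. Replicates of a group ranked the 219 sites alike, with Spearman correlations of 0.634 to 0.936 and a median of 0.857 over 8 pairs. The median was 0.702 between HIF-1α libraries of different lines and 0.404 between HIF-2α libraries of different lines. These correlations were taken over sites that all the libraries share, and are given as a description.

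The sequences at the centres of 4 of the sites with a peak in every library are shown as examples. They are written 5′ to 3′ on the plus strand of GRCh37, with each RCGTG of either strand in capitals. The SNAPC1 site is at chr14:62217874-62218073, the GPI site at chr19:34850225-34850384, the LDHA site at chr11:18415977-18416106 and the EGLN3 site at chr14:34407642-34407841. Stretches annotated as untranslated region were left out, so some windows are shorter than 200 bases.
SNAPC1: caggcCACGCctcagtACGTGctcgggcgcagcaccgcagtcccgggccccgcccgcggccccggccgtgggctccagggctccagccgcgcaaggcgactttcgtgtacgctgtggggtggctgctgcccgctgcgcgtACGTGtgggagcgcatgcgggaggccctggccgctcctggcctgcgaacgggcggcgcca
GPI: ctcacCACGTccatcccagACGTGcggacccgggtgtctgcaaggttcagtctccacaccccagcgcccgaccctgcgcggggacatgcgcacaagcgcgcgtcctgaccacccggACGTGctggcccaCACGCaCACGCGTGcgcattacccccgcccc
LDHA: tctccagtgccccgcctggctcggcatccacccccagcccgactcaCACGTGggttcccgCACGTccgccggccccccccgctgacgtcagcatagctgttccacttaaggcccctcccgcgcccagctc
EGLN3: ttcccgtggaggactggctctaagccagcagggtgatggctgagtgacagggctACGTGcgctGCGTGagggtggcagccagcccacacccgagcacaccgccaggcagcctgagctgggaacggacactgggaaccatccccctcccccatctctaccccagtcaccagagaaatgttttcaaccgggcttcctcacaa
The GPI window held 6 copies of RCGTG and the SNAPC1 window 3. The LDHA window held 2 copies, with the palindrome CACGTG counted as 1 copy. Of all 24 sites with a peak in every library, 22 held RCGTG in the central 200 bp and 15 held at least 2 copies.

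A second set shows sites where HIF-1α ranked far above HIF-2α. It comprises NCKIPSD at chr3:48723009-48723208, VDAC2 at chr10:76970154-76970353, BNIP3 at chr10:133795472-133795554, and 25 bases around the motif at SLC8A3 (chr14:70512967-70512991) and LONP1 (chr19:5720229-5720253), whose centres are in untranslated exon sequence.
NCKIPSD: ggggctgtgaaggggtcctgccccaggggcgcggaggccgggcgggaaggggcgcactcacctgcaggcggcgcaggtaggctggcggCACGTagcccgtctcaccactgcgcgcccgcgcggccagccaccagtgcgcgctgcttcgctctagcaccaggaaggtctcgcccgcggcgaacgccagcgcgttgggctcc
VDAC2: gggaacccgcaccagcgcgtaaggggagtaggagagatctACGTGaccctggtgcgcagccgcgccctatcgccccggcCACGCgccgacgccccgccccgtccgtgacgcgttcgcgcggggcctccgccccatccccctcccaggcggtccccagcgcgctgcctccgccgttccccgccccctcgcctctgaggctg
BNIP3: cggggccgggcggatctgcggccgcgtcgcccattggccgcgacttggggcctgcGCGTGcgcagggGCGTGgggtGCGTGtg
SLC8A3: gctgcccgtCACGTtgccaatggag
LONP1: cccgatgggcGCGTGgctcgaaaca
The last set shows sites where HIF-2α ranked above HIF-1α, at IRF2BP2 (chr1:234748490-234748689), IGFBP3 (chr7:46017970-46018169) and BCL3 (chr19:45245152-45245351).
IRF2BP2: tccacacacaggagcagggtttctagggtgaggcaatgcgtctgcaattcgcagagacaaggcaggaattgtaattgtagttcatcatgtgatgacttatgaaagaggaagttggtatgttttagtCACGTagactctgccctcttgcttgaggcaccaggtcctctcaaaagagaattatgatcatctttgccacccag
IGFBP3: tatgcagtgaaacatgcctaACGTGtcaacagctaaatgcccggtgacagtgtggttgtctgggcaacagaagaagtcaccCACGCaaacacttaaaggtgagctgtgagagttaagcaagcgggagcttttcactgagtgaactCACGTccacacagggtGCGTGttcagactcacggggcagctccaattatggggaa
BCL3: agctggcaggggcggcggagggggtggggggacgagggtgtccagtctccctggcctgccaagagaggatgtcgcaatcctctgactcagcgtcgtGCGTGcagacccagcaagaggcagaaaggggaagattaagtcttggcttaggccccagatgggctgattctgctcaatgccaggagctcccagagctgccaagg
These sites were taken from the 8 leaning most to each isoform, described further on. The central 200 bp held 9 CpG dinucleotides at SLC8A3 and 22 to 29 at the other 7 sites leaning to HIF-1α. The sites leaning to HIF-2α held 3 at IRF2BP2, 7 at IGFBP3, 7 at BCL3 and 5 at TRIM55, but 15 at UACA, 17 at AXL, 19 at FRMD8 and 20 at HES1. The BCL3 window also held the AP-1 motif TGANTCA, the recognition sequence of the FOS and JUN factors, which was not found in the other 2.

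Of the 10 best ranked shared sites, 4 were nearest to genes of glucose or lactate metabolism and 2 to BHLHE40. The highest mean percentile over the 16 libraries was 99.2 ± 0.900 (SD, n = 16) at chr14:62217294-62218864, an intergenic site 11164 bp upstream of the nearest coding start, that of SNAPC1, which encodes a subunit of the small nuclear RNA activating complex. The same site was 93 bp from the start of the non-coding gene HIF1A-AS3. Its percentile ran from 96.5 to 99.9, so each library placed it among its best peaks. ALDOA, the glycolytic aldolase, followed with 98.5 ± 1.5 (SD, n = 16), and GPI, the isomerase of glucose-6-phosphate, had 97.2 ± 4.83 (SD, n = 16).

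BHLHE40, a transcriptional repressor induced by hypoxia, had 2 shared sites among the 10 best. The site 432 bp from its start had a mean percentile of 97.7 ± 2.46 (SD, n = 16), and the site 7572 bp downstream 96.2 ± 3.97 (SD, n = 16). At the nearer site, the HIF-1α percentiles of A549 were 95.2 and 96.1, those of HCT116 99.2 and 99.3, those of PC3 96.0 and 98.8, and those of T47D 93.8 and 92.1. The HIF-2α percentiles were 100 in both A549 libraries, 99.2 and 99.5 for HCT116, 99.8 and 99.7 for PC3, and 96.8 and 98.2 for T47D. Both isoforms thus placed the site near the top everywhere, and HIF-2α stood above HIF-1α without overlap in 3 of 4 lines by a few percentile points.

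The other 5 of the 10 best were ZNF395 (96.5 ± 3.63, a zinc finger gene, with the site in an intron of FBXO16), STC2 (96.1 ± 4.23, the secreted stanniocalcin 2), LDHA (96.1 ± 3.85, lactate dehydrogenase A), SLC16A3 (95.6 ± 5.40, the lactate exporter MCT4) and KDM4B (93.5 ± 6.37, a histone lysine demethylase), each as mean percentile ± SD over 16 libraries. Across all 24 sites with a peak in every library, the mean HIF-1α percentile less the mean HIF-2α percentile, called the lean here, ran from -4.60 to 17.3 with a median of 4.32. Of these sites 17 leaned to HIF-1α and 7 to HIF-2α.

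**Figure D1:**
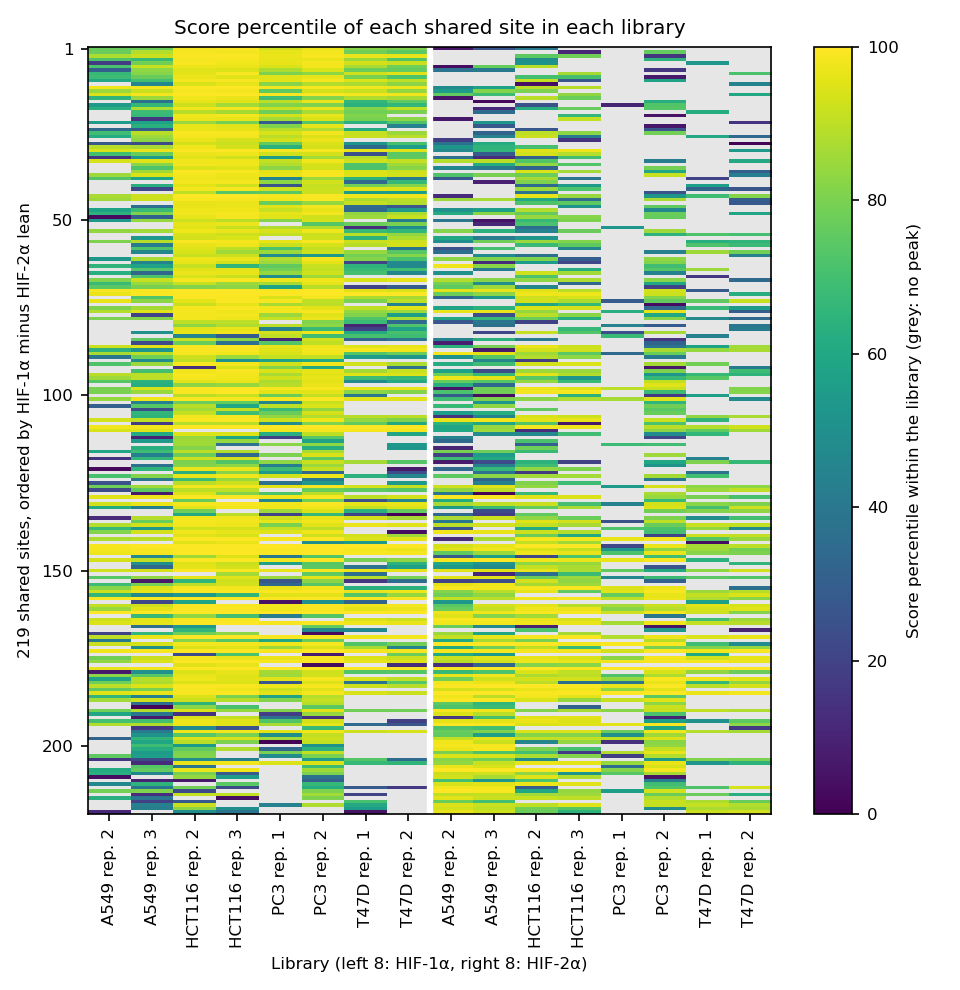
Score percentile of the 219 shared sites (rows, ordered from the site leaning most to HIF-1α at the top to that leaning most to HIF-2α at the bottom) in 16 libraries (columns, HIF-1α left and HIF-2α right); grey marks a site with no peak. The HIF-1α libraries of HCT116 rank most sites near the top of their lists, whereas PC3 HIF-2α replicate 1 has a peak at only 25.6% of them.

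Genes of 10 lists, 9 of them by role, were then looked up among the genes nearest to shared sites. Of 20136 protein-coding genes, 206 (1.02%) were nearest to a shared site. Of 16 genes encoding glycolytic enzymes, 13 were nearest to at least 1 shared site: HK1, HK2, GPI, PFKL, PFKP, ALDOA, TPI1, GAPDH, PGK1, ENO1, ENO2, PKM and LDHA. The remaining 3 were PFKM, ALDOC and PGAM1. All 14 shared sites of these enzymes leaned to HIF-1α, by a median of 24.9 percentile points, against 175 of the 219 sites and a median of 22.7 overall. The lean was 1.03 at ALDOA and 66.3 at HK2, which encodes the hexokinase that starts glycolysis.

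At the HK2 site all 8 HIF-1α libraries had a peak, with a mean percentile of 88.3, and 3 HIF-2α libraries did, with a mean of 21.9. At PGK1, phosphoglycerate kinase, all 16 libraries had a peak, with means of 97.1 for HIF-1α and 79.8 for HIF-2α. At ENO1, the enolase, the means were 99.7 and 85.6. The direction was not the same on every scale. The lean at ALDOA was -0.628 when libraries were ranked over the 219 sites alone, and that at ENO2, the neuronal enolase, was -5.18 over libraries with a peak only.

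Of 7 genes for glucose and lactate handling, 6 had a shared site, namely SLC2A1, SLC2A3, SLC16A3, PFKFB3, PFKFB4 and PDK1, and 7 of their 8 sites leaned to HIF-1α. Of 12 genes of oxygen sensing and HIF feedback, 4 had one: EGLN1 and EGLN3, the prolyl hydroxylases, CITED2, which competes for a HIF coactivator, and BHLHE40. VHL, HIF1A, EPAS1 (encoding HIF-2α) and ARNT (encoding HIF-1β) were not nearest to any of the 219 sites. The EGLN3 gene had 2, 12290 bp downstream and 109223 bp upstream of the nearest coding start, with leans of 10.7 and 24.1. Both were in introns of the gene as annotated.

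Smaller shares were found for histone demethylases (3 of 10, KDM3A, KDM4B and KDM6B), angiogenic and secreted factors (3 of 9, ADM, ANGPTL4 and STC2) and glycogen metabolism (2 of 7, GBE1 and PGM1). VEGFA, the main angiogenic factor, and CA9, the hypoxia-induced carbonic anhydrase, were not nearest to a shared site. For mitochondrial turnover and function the count was 4 of 9, for collagen modification 3 of 6, and for growth control and acid balance 5 of 8. Of the 47 protein-coding genes that the study itself listed as common HIF targets, 40 were nearest to a shared site, a list chosen in part on these libraries and so no independent evidence. In all, 154 of the 219 sites were nearest to a gene of none of these lists.

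Sites on either side of the rule's limits overlapped in score percentile. The 39 sites that just met it, with HIF-1α in exactly 3 and HIF-2α in exactly 2 lines, had a mean percentile of 19.1 to 50.3, with a median of 30.4. The 137 sites with HIF-2α in at least 2 lines but HIF-1α in only 2 had 4.97 to 56.8, with a median of 24.1. The 158 sites with HIF-1α in at least 3 lines and HIF-2α in only 1 had 6.77 to 54.0, with a median of 26.7. The best of these outside the rule were near CCN4, a secreted matricellular protein, for the first kind and near DENND1A for the second. The lowest ranked of the 219 sites was near KRT19, a keratin of epithelial cells, with a mean percentile of 17.3 and peaks in 7 libraries.

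The shared sites leaned mostly to HIF-1α. These values come from the scores of the same peaks that chose the sites, so they are given without a test. The lean was above 0 at 175 sites and below 0 at 44, with a median of 22.7 and a range from -51.5 to 79.0. Both HIF-1α replicates ranked above both HIF-2α replicates in all 4 lines at 46 sites (21%), against 0.804% of all merged sites. HIF-2α ranked above HIF-1α in this way in at least 3 lines at 2 sites (0.913%), against 0.0941% of all merged sites, and in all 4 lines at 0. A missing peak counted as ranked below. Either order needs peaks of the higher isoform in that many lines, which the rule favours and most merged sites lack. The shares of all merged sites are therefore no like-for-like background. The rule asked for more lines with HIF-1α than with HIF-2α, and the lean was higher where more HIF-2α libraries had no peak, with a Spearman correlation of 0.539 over the 219 sites. The HIF-1α lists were also longer than the HIF-2α lists in HCT116, PC3 and T47D. Shared sites with a peak had median percentiles of 96.0 and 96.5 in the HCT116 HIF-1α lists of 4505 and 4465 peaks. A549 had 77.1 and 73.7 in its HIF-1α lists of 382 and 629 peaks. Its HIF-2α lists of 1382 and 1056 peaks had 76.0 and 78.8. The part of list length in the lean was not tested. Over libraries with a peak only, 156 leaned to HIF-1α and 63 to HIF-2α. When each library was ranked over the 219 sites alone, 112 leaned to HIF-1α, 106 to HIF-2α and 1 to neither. Such ranks have the same mean in every library, so the mean lean is 0 by construction. The split on that scale does not measure the balance between isoforms.

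A549 was the only line with a negative median lean. It was -2.52, with 90 sites leaning to HIF-1α and 117 to HIF-2α, against 20.3 for HCT116, 45.9 for PC3 and 15.7 for T47D. Over the sites with a peak in all 4 libraries of a line, the median lean was -2.69 for A549 (99 sites), 6.72 for HCT116 (120 sites), 7.04 for PC3 (50 sites) and 8.58 for T47D (57 sites). A549 was also the line whose HIF-1α lists were the shorter ones, with 382 and 629 peaks against 1382 and 1056 for HIF-2α, and the part of list length in the lean was not tested. The study reported relatively more HIF-2α protein in A549, and a larger share of HIF-2 sites there, found partly in these libraries. The part of protein level in the lean was not tested here either. At 47 shared sites (21.5%, against 0.753% of all merged sites) the isoforms stood apart without overlap in opposite directions in different lines. Only sites with peaks of both isoforms can show this, which the rule asks for, so the share of all merged sites is no like-for-like background. A missing peak counted as 0. Some gaps were small, as at SNAPC1 in PC3, with HIF-1α at 99.9 and 99.8 and HIF-2α at 99.5 and 99.6. HIF-2α was the higher isoform in A549 at 43 of these 47, and HIF-1α in HCT116 at 38. LDHA was among them, with leans of -2.52 for A549, 2.35 for HCT116, 6.71 for PC3 and 6.98 for T47D.

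**Figure D2:**
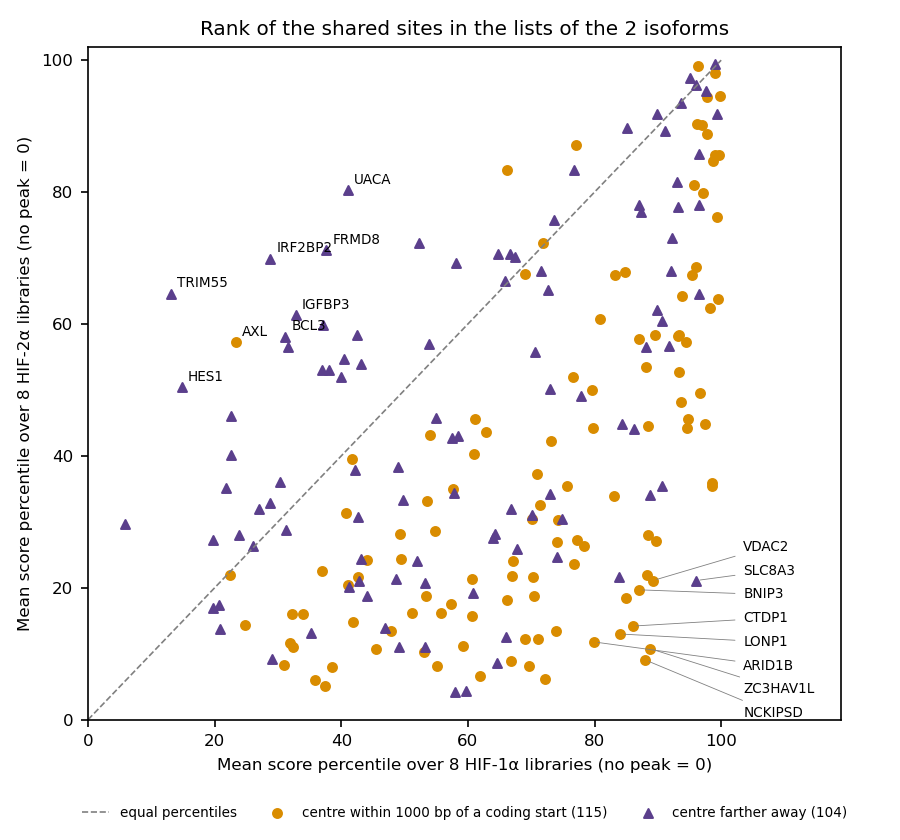
Mean score percentile of each of the 219 shared sites over the 8 HIF-1α libraries (horizontal) and the 8 HIF-2α libraries (vertical), with a missing peak as 0; circles are sites centred within 1000 bp of a coding start (115), triangles are all others, and the dashed line marks equal percentiles. Most sites lie below the line, and the named sites above it are almost all triangles.

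The 8 sites leaning most to HIF-1α were near NCKIPSD, ZC3HAV1L, SLC8A3, CTDP1, LONP1, VDAC2, ARID1B and BNIP3. All 8 had a peak in every HIF-1α library and in only 2 or 3 HIF-2α libraries, and 7 were centred within 1000 bp of a coding start. At NCKIPSD, which encodes a partner of the NCK adaptor in actin assembly, HIF-1α percentiles were 76.6 and 77.5 for A549, 98.3 and 99.1 for HCT116, 92.8 and 97.1 for PC3, and 82.3 and 80.5 for T47D. HIF-2α had 6.04 and 25.9 for A549, 40.6 in 1 library of HCT116, and no peak in the other or in PC3 and T47D. The isoforms did not overlap in any line, and the lean was 79.0.

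LONP1, the Lon protease of the mitochondrial matrix, had a lean of 71.2. Its HIF-1α percentiles were 17.4 and 78.6 for A549, 98.9 and 97.9 for HCT116, 96.5 and 98.5 for PC3, and 93.4 and 91.8 for T47D. HIF-2α peaks were listed only in HCT116 replicate 2, at 51.4, and in T47D replicate 1, at 52.4. The lowest HIF-1α value, in A549 replicate 2, was still above the HIF-2α libraries of that line, which had no peak.

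BNIP3, a receptor for the removal of mitochondria, had HIF-1α percentiles of 66.9 and 82.0 for A549, 96.0 and 99 for HCT116, 80.2 and 83.2 for PC3, and 92.8 and 95.7 for T47D. HIF-2α peaks were listed in HCT116 replicate 3, at 86.6, and T47D replicate 2, at 71.1. In both of these lines the listed HIF-2α peak ranked below both HIF-1α peaks. The lean was 67.2 over all libraries and 8.10 over libraries with a peak only, which sets the 2 HIF-2α libraries against 8 HIF-1α libraries of all lines. At NCKIPSD it was 63.8 on the latter scale. The SLC8A3 site, in an exon of a sodium-calcium exchanger gene, was the exception in position, 33900 bp from the nearest coding start, with a lean of 75. VDAC2, a channel of the outer mitochondrial membrane, had 68.1, CTDP1, a phosphatase of RNA polymerase II, 71.7, and ARID1B, a chromatin remodelling subunit, 68.1.

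The 8 sites leaning most to HIF-2α were near TRIM55, IRF2BP2, UACA, HES1, AXL, FRMD8, IGFBP3 and BCL3, and 7 of them were centred more than 1000 bp from a coding start. IGFBP3 encodes a binding protein of insulin-like growth factors, and its site was 56597 bp upstream of the start. HIF-2α percentiles there were 99.7 and 99.2 for A549, 59.6 and 84.1 for HCT116, and 55.8 and 93.1 for PC3. HIF-1α percentiles were 79.2 and 81 for A549, 22.2 and no peak for HCT116, and no peak and 80.1 for PC3. T47D had no peak of either isoform. The isoforms were apart in A549 and HCT116 and overlapped in PC3, and the lean was -28.6.

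IRF2BP2, a transcriptional corepressor, had its site 2666 bp upstream of the start, and a lean of -41.1. HIF-2α percentiles were 93.0 and 90.4 for A549, 78.6 and 73.2 for HCT116, 49.6 in 1 PC3 library, and 87.4 and 86.9 for T47D. HIF-1α had no peak and 42.8 for A549, 82.7 and 49.2 for HCT116, no peak for PC3, and 55.5 and no peak for T47D. The isoforms were apart in A549 and T47D only.

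BCL3, a nuclear partner of NF-κB, had a lean of -27.1 at a site 6713 bp upstream. HIF-2α stood above HIF-1α without overlap in A549 and T47D. In A549 HIF-2α had 98.4 and 98 and HIF-1α no peak and 39.0. In HCT116 HIF-1α had 78.7 and 22.8, and HIF-2α had 29.8 and no peak, so the isoforms overlapped. TRIM55, a muscle RING finger gene, had the lowest lean at -51.5. AXL, a receptor tyrosine kinase, had -34.0 at 619 bp from a start, the only one of these 8 centred within 1000 bp of a coding start. HES1, the Notch target, had -35.7, at a site centred 1162 bp from a coding start that the site also spanned. The site nearest to FRMD8 was 324 bp from the start of NEAT1, the long non-coding RNA of paraspeckles, and had a lean of -33.6. The site nearest to UACA was 227323 bp away from its start, so that the gene serves as a name only, with a lean of -39.3.

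**Figure D3:**
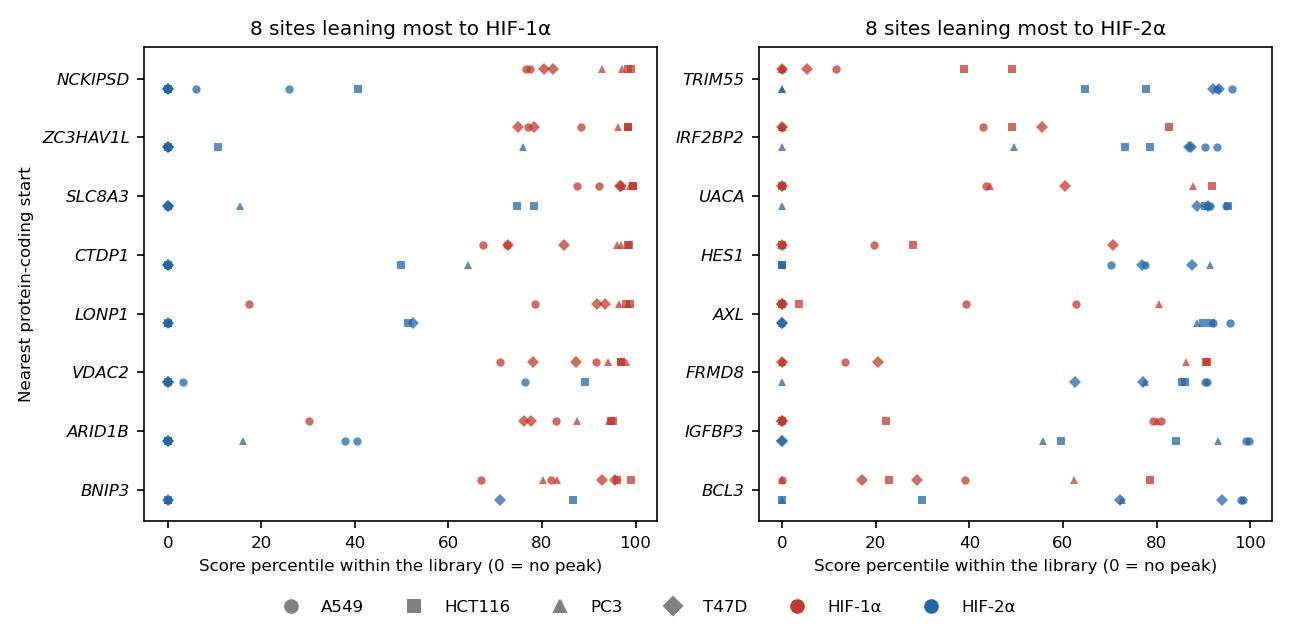
Score percentile in each of 16 libraries (points; shape gives the cell line, red HIF-1α, blue HIF-2α, 0 means no peak) for the 8 sites with the highest and the 8 with the lowest lean. At the left-hand sites all 8 HIF-1α libraries have a peak and most HIF-2α libraries have none, whereas at the right-hand sites HIF-1α peaks are present in 3 to 6 libraries, mostly at lower percentiles.

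Whether the lean recurred in libraries that had not been used to rank the sites was examined by splitting replicates. The lower-numbered replicates gave the 54 sites leaning most to each isoform, and the lean was read in the other replicates. The 54 HIF-1α sites had a held-out lean of 48.9, and the 54 HIF-2α sites one of -3.91, against 23.3 over all 219. The difference was 52.8 percentile points (58.1 for A549, 43.0 for HCT116, 45.9 for PC3 and 64.3 for T47D). It was above 0 in 4 of 4 lines, with a two-sided exact sign-flip permutation p of 0.125 over lines, adjusted p = 0.138, where 0.125 is the smallest p that 4 lines allow. Held-out values were above 0 at 54 of 54 sites of the first kind, and below 0 at 37 of 54 of the second, against 48 of all 219. Membership itself had used both replicates, and replicates ranked the sites alike. The held-out difference thus describes how well replicates agreed and is no independent support for the lean.

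The sites were next compared in position and sequence, which the rule had not used. A peak was called near a start when its centre was within 1000 bp of the start of a protein-coding transcript. Of the 219 sites, 115 (52.5%) were near a start, against 45.7% of all sites, and 63 (28.8%) were more than 10000 bp away. Their centres were in an intron at 89 sites, in an exon at 46, of which 37 were in an untranslated region, and in intergenic sequence at 84. The sites with HIF-2α in only 2 lines were near a start at 67.5% of 80, those with 3 lines at 30.9% of 68, and those with 4 lines at 56.3% of 71.

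Position set the 2 isoforms apart. In the HIF-2α libraries, 48.9% ± 5.64 (SD, n = 8) of peaks at shared sites were near a start, and 16.0% ± 9.12 (SD, n = 8) of all other peaks. The difference was 32.9 percentage points and was positive in 8 of 8 libraries, from 23.7 to 47.6 (two-sided exact sign-flip permutation over libraries, p = 0.00781, the smallest possible, adjusted p = 0.0143). In the HIF-1α libraries the shares were 57.1% ± 4.61 and 61.0% ± 8.93 (SD, n = 8). That difference of -3.95 points was smaller than the spread between libraries, with a rise in both A549 libraries and a fall in the other 6 (exact p = 0.164). With other peaks weighted to the same score percentiles, a choice made once the data had been seen, it was -7.83 and passed the threshold (exact permutation, adjusted p = 0.0382), as it did without HCT116 HIF-2α replicate 2 (-6.84, exact permutation, adjusted p = 0.0286). With start sites of all genes it turned to 1.39.

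The contrast between shared and other peaks was 36.9 points larger for HIF-2α than for HIF-1α. Both isoforms were read at the same 219 sites, so similar shares there (48.9% for HIF-2α, 57.1% for HIF-1α) were largely set by the rule. The excess came mostly from the other peaks (16.0% for HIF-2α, 61.0% for HIF-1α) and is no separate trait of the shared sites. The excess was 29.1 for A549, 36.6 for HCT116, 33.6 for PC3 and 48.1 for T47D. Exchanging isoform labels within each line gave p = 0.00154, the smallest of 1296 relabellings, in this two-sided exact permutation test, adjusted p = 0.00566. Here and below the 11 tests were adjusted together, and since libraries hold many of the same sites, p-values measure the spread between libraries only.

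Shared sites were also compared with sites that recurred for 1 isoform alone. Of 363 sites with HIF-1α in at least 3 lines and no HIF-2α peak, 82.4% were near a start, with a median distance of 129 bp. Of 182 sites with HIF-2α in at least 2 lines and no HIF-1α peak, 180 lay on chromosomes 1 to 22, X and Y, and 5.00% of these were near a start, with a median distance of 33320 bp. The median over the 219 shared sites was 619 bp. By library, peaks at HIF-1α-only sites were near a start at 81% ± 5.59 (SD, n = 8), 23.9 points above peaks at shared sites, in 8 of 8 libraries (exact sign-flip permutation, p = 0.00781, adjusted p = 0.0143). Peaks at HIF-2α-only sites were near a start at 2.86% ± 2.73 (SD, n = 8), 46.1 points below peaks at shared sites, in 8 of 8 (exact sign-flip permutation, p = 0.00781, adjusted p = 0.0143).

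Even at the shared sites, the HIF-1α libraries listed more peaks near starts. The shares were 52.4% and 52.6% for HIF-1α and 45.1% and 47.4% for HIF-2α in A549, 54.3% and 57.4% against 53.7% and 51.4% for HCT116, 57.6% and 54.8% against 39.3% and 45.7% for PC3, and 62.3% and 65.2% against 51.8% and 57.0% for T47D. The isoforms did not overlap in any of the 4 lines, and the mean difference was 8.15 points (exact permutation of isoform labels within lines, p = 0.00154, adjusted p = 0.00566). When a peak was required in both replicates, 91 sites remained and the difference was 3.89 (exact permutation, adjusted p = 0.0558). With all 4 lines required for both isoforms, 66 sites remained and it was 3.89 (exact permutation, adjusted p = 0.0141). Without HCT116 it was 2.63 and without PC3 3.30, and neither passed the threshold. The difference rests on which libraries listed a peak, which the rule had used, and the rule asked for fewer lines with HIF-2α. Sites with HIF-2α in only 2 lines were near a start at 67.5%, against 30.9% with 3 and 56.3% with 4. The part of the rule in the difference was not tested.

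Distance also went with the lean among the 219 sites. The 54 sites leaning most to HIF-1α over all libraries had a median distance of 150 bp, and 75.9% were near a start. The 54 leaning most to HIF-2α had a median distance of 10879 bp, and 16.7% were near a start. The Spearman correlation of lean with distance was -0.402 over the 219 sites, which share their libraries and do not form independent points. In the 13 genes with 2 shared sites, the nearer one leaned more to HIF-1α in 8 and less in 5. At DDIT4, an inhibitor of mTOR signalling, the site at 155 bp had a lean of 62.7 and the site at 12942 bp 3.52. At BNIP3L, a relative of BNIP3, the lean was 52.5 at 39 bp and -4.25 at 61037 bp. At ZNF395 it was 53.5 at 1092 bp and 2.25 at 9360 bp. FRMD8 had the widest difference of the 13 and went the other way, with -33.6 at 35522 bp and 56.0 at 68346 bp. NPEPPS, EGLN3, ELF3 and BHLHE40 also went the other way, by -25.3, -13.4, -6.68 and -0.605 points.

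**Figure D4:**
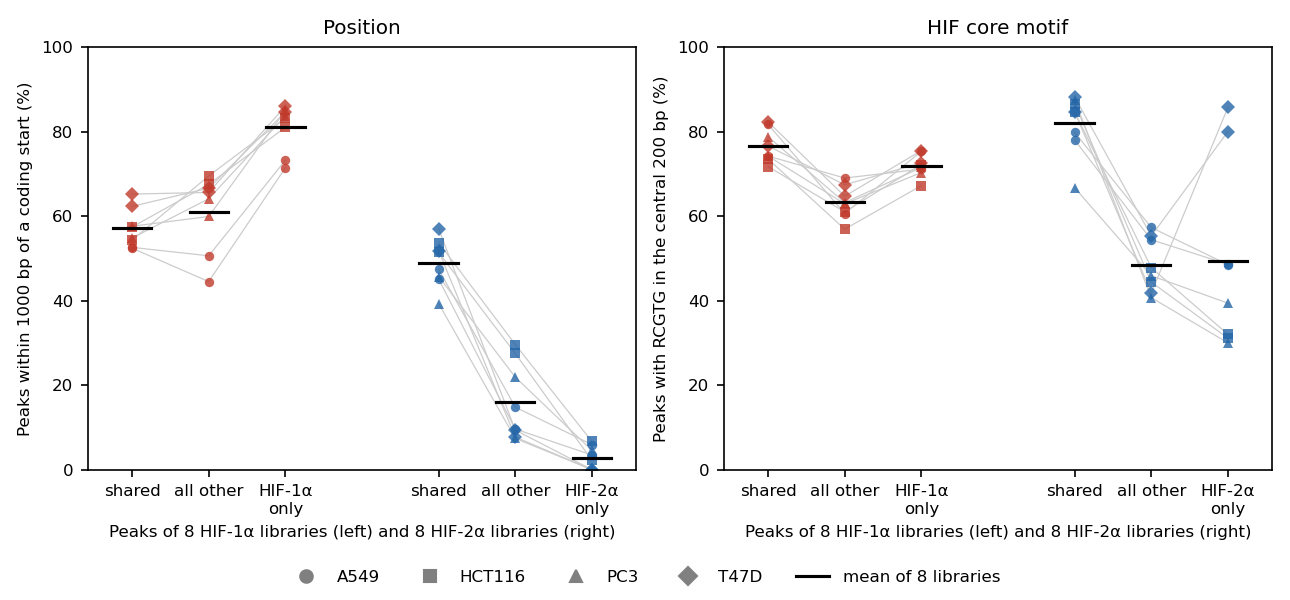
Share of peaks within 1000 bp of a coding start (left) and with RCGTG in the central 200 bp (right) in each library (points; shape gives the cell line, grey lines join a library), for peaks at the 219 shared sites, all other peaks of the library, and peaks at recurrent sites of that isoform alone; black bars are means of 8 libraries. For HIF-2α the shared sites stand far above the other peaks in position, whereas for HIF-1α they stand below the HIF-1α-only sites.

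All 219 sites held at least 1 RCGTG within their limits, as did 88.8% of all sites, which are narrower, with a median width of 1227 bp. The number of copies had a median of 7 and reached 30. Within the central 200 bp, 187 sites (85.4%) held RCGTG, against 52.3% of all sites, and 118 (53.9%) held at least 2 copies. ACGTG was present in this window at 68.9% of the shared sites, 50.4% of the HIF-1α-only sites, 36.7% of the HIF-2α-only sites and 27.9% of all sites. GCGTG was found at 51.1%, 51.5%, 16.1% and 34.8%.

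By library, RCGTG was more frequent in peaks at shared sites than in other peaks. The shares were 76.6% ± 3.94 and 63.2% ± 3.88 in HIF-1α libraries (SD, n = 8), and 82.0% ± 7.16 and 48.5% ± 6.4 in HIF-2α libraries (SD, n = 8). The mean difference was 23.5 points and was positive in 16 of 16 libraries, from 5.19 in A549 HIF-1α replicate 3 to 46.8 in PC3 HIF-2α replicate 1 (two-sided exact sign-flip permutation, p = 3.05e-05, the smallest possible, adjusted p = 3.36e-04). Shared sites also had higher scores than other peaks. With other peaks weighted in the same way to their score percentiles, the difference was 16.5 points, and relative to flanking windows of the same CpG content it was 13.6 (both exact permutation p = 3.05e-05).

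Against recurrent sites of HIF-1α alone the difference in RCGTG was small, 76.6% against 72.0% ± 2.68 (SD, n = 8), or 4.65 points, positive in 7 of 8 libraries (exact permutation, p = 0.0156, adjusted p = 0.0215). It was not stable. With equal numbers of peaks from each library it was -3.02, and it lost the threshold without PC3 HIF-2α replicate 2 (2.66, exact permutation, adjusted p = 0.0859) and without T47D HIF-1α replicate 2 (3.14, exact permutation, adjusted p = 0.0645). Against recurrent HIF-2α-only sites, with 49.4% ± 21.9 (SD, n = 8), it was 32.6 points, positive in 7 of 8 (exact permutation, p = 0.0156, adjusted p = 0.0215). The exception was T47D HIF-2α replicate 1, and the T47D HIF-2α libraries held only 7 and 10 peaks at such sites. HIF-2α-only sites were poor in CpG, with a median of 3 in 200 bp against 19 at shared sites. Relative to CpG-matched windows the difference was 14.7 points and did not pass (exact permutation, adjusted p = 0.0967), and without PC3 HIF-2α replicate 2 it was 33.6 (exact permutation, adjusted p = 0.0737).

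**Figure D5:**
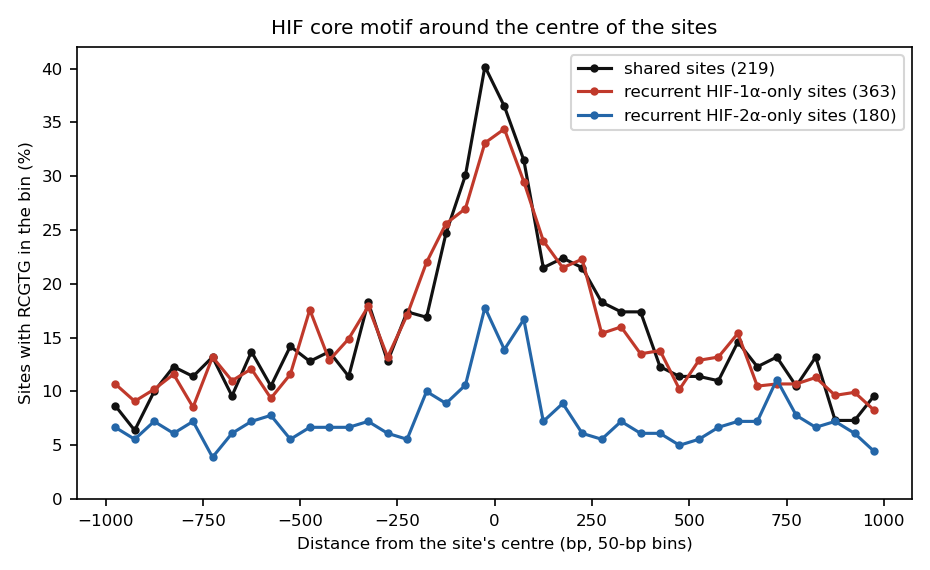
Share of sites with RCGTG in each 50-bp bin by distance from the site's centre, for the 219 shared sites, 363 recurrent HIF-1α-only sites and 180 recurrent HIF-2α-only sites. All 3 curves peak at the centre, at a mean of 38.4%, 33.7% and 15.8% per bin within 50 bp, against 11%, 11% and 6.67% beyond 500 bp.

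The motif was concentrated at the centres, as the plot of RCGTG by distance shows, where a bin within 50 bp of the centre held it at 38.4% of shared sites against 11% beyond 500 bp. The AP-1 motif TGANTCA was present in the central 200 bp of 32 shared sites (14.6%), against 9.67% of all sites. It was found at 37% of the 54 sites leaning most to HIF-2α and at 3.70% of the 54 leaning most to HIF-1α. In sites of 1 isoform alone it was at 31.1% for HIF-2α and 2.75% for HIF-1α. By position, it was at 25.4% of the 63 shared sites more than 10000 bp from a coding start and at 8.70% of the 115 near one. Whether the AP-1 motif went with the lean apart from distance was not tested. RCGTG was frequent at both ends of the lean, at 92.6% of the 54 sites leaning most to HIF-1α and at 87.0% of the 54 leaning most to HIF-2α, with a median of 22.5 and 7 CpG in the window. A motif match is a description of the sequence and no evidence of a bound factor.

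The offset between peak centres of the isoforms was compared with that between replicates. In A549, over 99 sites with a peak in all 4 libraries, the median offset between isoforms ran from 76.0 to 94.0 bp and that between replicates was 91.0 bp for HIF-1α and 60.0 bp for HIF-2α. Averaged over lines, offsets between isoforms exceeded those between replicates by 7.22 bp, in 3 of 4 lines (one-sided exact permutation over 81 splits, p = 0.123, adjusted p = 0.138). PC3 was opposite, at -10.9 bp, with its HIF-2α replicates 123 bp apart. The excess moved widely on leaving out single libraries. Without PC3 HIF-2α replicate 1 it was 14.9 bp and passed the threshold (exact permutation, adjusted p = 0.0215), and without T47D HIF-1α replicate 2 it was 14.5 bp and did not pass. It was -0.250 bp without PC3 HIF-1α replicate 2 and 0.188 bp without T47D HIF-2α replicate 1.

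The strongest shared sites far from coding starts were examined last. Besides SNAPC1 they lay near NPEPPS, EGLN3, MRPL45, ARRDC3 and SCARB1, each with a peak in all 16 libraries. ARRDC3, an arrestin domain gene, had its site 102677 bp away and a mean percentile of 90.2 ± 15.0 (SD, n = 16), with the lowest values in T47D. SCARB1, the receptor for high-density lipoprotein, had its site in an intron 20641 bp from the nearest start with 87.4 ± 7.04 (SD, n = 16). The sites near NPEPPS, an aminopeptidase, and MRPL45, a mitochondrial ribosomal protein, had 93.5 ± 5.61 and 90.9 ± 10.2 (SD, n = 16).

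These last 2 sites were copies of each other. They lie on chromosome 17 at chr17:45578942-45580651 and chr17:36442087-36443559, and 68.1% of the 31-base words of the site with fewer words also occurred in the other, on either strand. No other pair of the 219 sites shared 10% of such words. The window near NPEPPS (chr17:45579662-45579861) is shown on the plus strand and that near MRPL45 (chr17:36442654-36442853) on the minus strand.
NPEPPS: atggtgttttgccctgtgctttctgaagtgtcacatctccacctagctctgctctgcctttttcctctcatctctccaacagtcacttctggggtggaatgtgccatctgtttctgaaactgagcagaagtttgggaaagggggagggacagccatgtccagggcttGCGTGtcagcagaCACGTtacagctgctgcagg
MRPL45: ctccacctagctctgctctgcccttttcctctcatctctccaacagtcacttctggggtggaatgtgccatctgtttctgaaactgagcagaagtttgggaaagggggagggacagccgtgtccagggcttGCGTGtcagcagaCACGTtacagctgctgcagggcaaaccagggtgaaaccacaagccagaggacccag
Reads of low mapping quality had been removed before peaks were called. Whether reads of either copy were placed at the other cannot be told from peak lists, and the 2 sites are uncertain as separate sites. Both were counted among the 219.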

How the data were processed

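ChIP-seq peak lists of HIF-1α and HIF-2α in 4 cell lines, 1 per library, were used, and samples were grouped by the cell line and antibody in the labels. Per the study's methods, the authors trimmed reads with Trim Galore 0.3.3, aligned them with BWA 0.7.5a-r405 to GRCh37, removed low mapping quality reads with SAMtools 0.1.19, blacklisted regions with bedtools 2.17.0 and duplicates with Picard 2.0.1, and called peaks per library with MACS in control mode. The MACS version is not given in the sources used here. Each peak carries a score deposited by the authors, which is that of the peak caller, has no stated scale, and was used only to rank peaks. It had a minimum of 50.0 and piled up at 3100 for 10 peaks, so ties occur at the top. Filters the study used later, on a second caller, replicates and HIF-1β, do not act on these lists. Read depth is unknown.

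The re-analysis ran in Python 3.11.15, on numpy 2.4.6, with pysam 0.24.0 for sequence, scipy 1.17.1 for ranks and matplotlib 3.10.9 for plots. A site's centre was the median centre of its best peaks over libraries, and its gene that with the nearest protein-coding transcript start in GENCODE release 44 mapped to GRCh37. The 29 peaks outside chromosomes 1 to 22, X and Y were left out of distances and motifs. RCGTG was searched on both strands. Expected shares came from windows 5000 bp to each side with equal CpG counts, 20 or more being pooled. Differences between shares were tested by two-sided exact sign flips over libraries, and isoforms by exact exchange of labels within lines, with 11 tests adjusted by the Benjamini-Hochberg method (threshold 0.05). The functions were tested on simulated lists. Named were the 10 best ranked sites, the 8 leaning most to each isoform, the 6 best ranked sites over 10000 bp from a coding start, and the 3 lowest ranked or just outside the rule. Genes other than these were taken from the lists or have 2 sites. The sites, lists and tests were chosen with earlier results of these data known. Alternatives were a stricter score, equal list lengths, 50% reciprocal overlap, both replicates, all 4 lines, other windows and start sites, lines as units, a replicate block and leaving out each library and line.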

Additional observations from a re-analysis of the deposited data

Results flagged for a closer look

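The contrast in start-site share between peaks at shared sites and other peaks was 36.9 percentage points larger for HIF-2α than for HIF-1α, and was listed here because the effect differed between isoforms by a direct test (exact permutation of isoform labels within cell lines, p = 0.00154, adjusted p = 0.00566, 4 of 4 lines). That contrast differed mostly through the other peaks, since the shared sites are the same for both isoforms. Isoforms standing in opposite order in different cell lines were seen at 47 of the 219 shared sites. There both replicates of 1 isoform ranked above both of the other in at least 1 line and below in another. A missing peak counted as 0 in this order, some gaps were small, and the difference between lines at these sites was not tested.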

How the results depend on the processing

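The number of shared sites was 132 with scores at or above the median, 85 with equal numbers of peaks from each library, 91 with both replicates required and 66 with all 4 lines for both isoforms, and ran from 107 without HCT116 to 218 when a library or line was left out. The start-site difference of HIF-1α libraries, not called otherwise, was -11.0 with higher scores, -6.07 with equal numbers of peaks and -7.83 with matched percentiles, each past the threshold, turned to 1.39 with start sites of all genes, and ran from -6.84 to -0.254 on leaving out. RCGTG against other peaks was 12.7 with higher scores and 11.7 with equal numbers of peaks, below the main 23.5 but each past the threshold. RCGTG against HIF-1α-only sites was 0.452 with higher scores, 1.72 with both replicates, and -3.02 with equal numbers, and ran from 2.66 to 6. RCGTG against HIF-2α-only sites was 28.7 with higher scores, 39.6 with both replicates and 14.7 relative to CpG-matched windows, all short of the threshold, and ran from 27.6 to 46.2. The isoform difference in start-site share at shared sites was 3.89 with both replicates and 3.89 with all 4 lines for both isoforms, and ran from 2.63 to 8.50. The causes of these changes were not tested, except that fewer libraries raise the smallest p possible.

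On leaving out libraries or lines, RCGTG against other peaks ran from 21.1 to 24.9, the HIF-2α start-site difference from 27.6 to 39.6, its excess over HIF-1α from 33.3 to 42.9, the start-site difference from -26.6 to -19.5 against HIF-1α-only and from 42.8 to 55.2 against HIF-2α-only sites, the centre offset from -0.250 to 14.9 bp, and the held-out lean from 39.7 to 56.5. Without HCT116 or without PC3 the 5 called start-site results and RCGTG against HIF-2α-only sites kept their direction and missed the adjusted threshold, with 6 libraries per isoform, as did RCGTG against HIF-1α-only sites without any 1 line. With lines as units no test can pass, since 4 lines allow no p below 0.125, and the differences 23.5, 32.9, 4.65, -23.9, 32.6 and 46.1 were as before.

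The labels do not say whether same-numbered libraries of the isoforms form pairs, and the main tests did not pair them. Same-numbered libraries deviated together only weakly, with correlations of 0.0312 to 0.0944 by line. Whether they shared chromatin cannot be told from peak lists. With the replicate block, the isoform difference in the start-site contrast was 36.9 and that at shared sites 8.15 (both exact permutation, p = 0.00781), and no call changed. Unknown read depth limits all counts of missing peaks.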
